A study of Caenorhabditis elegans with 2 samples.

Results

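Autosomal intron peaks of HIF-1 are the peaks whose summit lay inside a protein-coding gene on 1 of the 5 autosomes, in no annotated exon, and away from gene starts. Set aside were summits near the start of a protein-coding gene (up to 1000 bp before it or 200 bp after it) and near that of a tRNA, snoRNA or snRNA gene (500 bp before, 200 bp after). This left 1069 of the 6541 peaks called on the pooled reads of both replicates (16.3%), and of the 5159 pooled peaks on autosomes. The choice used position alone and no measured signal.

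The data were chromatin immunoprecipitation sequencing (ChIP-seq) of whole Caenorhabditis elegans hermaphrodites, 1 group with 2 biological replicates. All animals were of strain OR3350, a stably transgenic line with GFP and FLAG fused to the C-terminal end of HIF-1, collected as L4 larvae 55 h after synchronisation by starvation at L1. The immunoprecipitation was by an antibody to GFP, the chromatin was sonicated, and the labels name no promoter, copy number or oxygen condition. With no second condition or tissue, what follows describes where peaks of tagged HIF-1 were called in whole animals. The cells behind them cannot be told apart.

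HIF-1 is the nematode hypoxia-inducible factor, a basic helix-loop-helix protein active as a dimer with AHA-1. When oxygen is plentiful, the prolyl hydroxylase EGL-9 marks HIF-1 for destruction through VHL-1, and RHY-1 also restrains it. Its known recognition core is ACGTG or GCGTG, and introns of worm genes can hold enhancers and alternative promoters as well as spacer sequence.

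The signal of a peak is the authors' own value relative to a control, usable for ranking within a list only, since the replicate lists have scales of their own. A thresholded set, chosen by the authors for reproducibility between the replicates (irreproducible discovery rate, IDR), held the 631 pooled peaks of highest signal. It contained 58 of the 1069 intron peaks, 5.43% (95% Wilson interval 4.22 to 6.95, which covers the count of peaks only), against 9.09% of all autosomal pooled peaks. The pooled list is named by the authors as peaks and background, the input to that choice. The 1011 members outside the thresholded set can therefore include background, and the densities and gene shares below rest mostly on them.

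The 101 bases centred on the summit are printed for 12 of the 14 strongest intron peaks, because they carry the highest signal, and for 3 more in rhy-1 and egl-9, because both genes regulate HIF-1. All are plus-strand ce11 (WBcel235) sequence from the RefSeq genome. Capitals mark ACGTG or GCGTG on either strand, so that CACGT and CACGC are the same cores read from the other strand.
Y62E10A.13, chrIV:13395338-13395438: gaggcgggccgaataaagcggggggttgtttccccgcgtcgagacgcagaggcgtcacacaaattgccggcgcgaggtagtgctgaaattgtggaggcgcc
hlh-30, chrIV:4026068-4026168: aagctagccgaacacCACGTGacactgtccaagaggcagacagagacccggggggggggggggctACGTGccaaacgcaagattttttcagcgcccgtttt
Y62E10A.13, chrIV:13396563-13396663: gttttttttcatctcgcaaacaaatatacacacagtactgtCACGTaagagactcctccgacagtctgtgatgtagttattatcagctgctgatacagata
nurf-1, chrII:14405333-14405433: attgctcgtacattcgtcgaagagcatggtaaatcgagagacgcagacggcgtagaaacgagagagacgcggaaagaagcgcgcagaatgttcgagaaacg
skn-1, chrIV:5656104-5656204: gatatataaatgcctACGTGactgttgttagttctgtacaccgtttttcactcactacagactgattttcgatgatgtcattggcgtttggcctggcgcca
zfp-1, chrIII:8802038-8802138: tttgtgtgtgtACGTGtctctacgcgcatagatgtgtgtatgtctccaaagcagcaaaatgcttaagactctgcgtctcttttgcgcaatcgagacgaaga
fkh-7, chrIV:5604581-5604681: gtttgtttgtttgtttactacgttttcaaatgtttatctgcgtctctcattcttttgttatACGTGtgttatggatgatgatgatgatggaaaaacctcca
pqn-41, chrIII:1921300-1921400: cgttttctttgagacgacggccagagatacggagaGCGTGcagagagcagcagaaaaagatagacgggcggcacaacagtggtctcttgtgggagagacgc
pkg-2, chrIV:8527762-8527862: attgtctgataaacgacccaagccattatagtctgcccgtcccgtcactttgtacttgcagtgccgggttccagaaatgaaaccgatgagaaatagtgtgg
daf-5, chrII:14040486-14040586: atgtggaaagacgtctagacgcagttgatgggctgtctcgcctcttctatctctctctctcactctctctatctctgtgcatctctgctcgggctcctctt
epg-9, chrIV:2602121-2602221: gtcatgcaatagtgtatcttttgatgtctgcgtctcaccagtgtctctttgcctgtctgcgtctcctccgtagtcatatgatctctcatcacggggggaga
ldh-1, chrII:11724581-11724681: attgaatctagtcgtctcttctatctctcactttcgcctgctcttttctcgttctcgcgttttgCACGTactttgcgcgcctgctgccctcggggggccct
rhy-1, chrII:9161553-9161653: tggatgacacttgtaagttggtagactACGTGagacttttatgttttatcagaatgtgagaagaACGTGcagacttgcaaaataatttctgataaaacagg
egl-9, chrV:10473064-10473164: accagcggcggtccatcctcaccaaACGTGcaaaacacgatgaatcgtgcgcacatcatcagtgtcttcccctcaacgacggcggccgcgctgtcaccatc
egl-9, chrV:10474164-10474264: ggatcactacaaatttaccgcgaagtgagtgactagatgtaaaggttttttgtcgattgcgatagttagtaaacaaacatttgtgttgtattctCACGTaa

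Of these 15 sequences, 10 held a core and 5 did not. The hlh-30 summit held CACGTG, which is a core on both strands, and a further ACGTG. Of the 5 without a core, 4 held GAGAGA or TGCGTC on either strand, 2 words that recur among the thresholded intron peaks and are taken up below.

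The strongest intron peak lay in Y62E10A.13 (WBGene00013379), the worm ortholog of phosphoserine phosphatase, which makes serine. This peak was in the first intron of a transcript that starts inside the gene. Its pooled signal was 366, with 213 in replicate 1 and 153 in replicate 2. It ranked 21 and 27 in the full replicate lists of 13935 and 13823 entries, mitochondrial peaks included. It held no core within 50 bp, and the nearest was 64 bp from the summit. A second peak of the same intron, 4080 bp long, had a signal of 220, with 125 and 98.1 in replicates 1 and 2, and held 1 core. This second summit lay 115 bp downstream of an annotated transcript start inside the gene, and the first lay 1340 bp downstream of the same start.

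The next strongest was in intron 2 of hlh-30, which encodes the TFEB-like factor that drives autophagy and lysosome genes. Its pooled signal was 304, with 172 in replicate 1 and 139 in replicate 2, and its 3 core matches were the most among the 25 strongest intron peaks. The intron was 8295 bp long and the summit 8833 bp from the gene's start. Both replicates placed these 3 leading peaks among their 54 strongest.

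The next peaks included those of 4 genes that regulate transcription or chromatin. In nurf-1, which encodes the large subunit of the NURF chromatin remodeller, a peak of 195 lay in intron 20 of 24, with 91.9 and 99.6 in replicates 1 and 2. It was 49 bp upstream of an internal transcript start and had no core within 50 bp. In skn-1, the worm Nrf factor of the oxidative stress response, a peak of 179 (113 and 69.5) lay in the first intron, 549 bp upstream of an internal start. In zfp-1, the AF10-like chromatin protein, the strongest of 5 thresholded peaks had a signal of 176 (94.6 and 84.2) and lay 731 bp upstream of an internal start. In fkh-7, a forkhead factor, the strongest peak had a signal of 146 (90.1 and 55.6) and lay 19947 bp from the gene's start. Each of these 4 genes thus had its strongest intron peak far from the first annotated gene start, and 3 of the 4 lay within 1000 bp upstream of a later one.

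The remaining peaks among the 25 strongest ran from 177 down to 89.5. They lay in ppfr-1, a regulatory subunit of protein phosphatase 4 (177, with 108 and 74.0 in replicates 1 and 2), in pqn-41, a glutamine-rich protein of linker cell death (145 and 100), and in pkg-2, a cGMP-dependent protein kinase (129). In daf-5, the Ski/Sno partner of the dauer TGF-β pathway, 2 peaks had signals of 127 and 106 in a first intron of 14446 bp. In epg-9, the autophagy protein ATG101, a peak had a signal of 123, and in tric-1B.1, a trimeric intracellular cation channel, one had 117. The nuclear hormone receptor nhr-19 had 116, and zfp-1 had 2 more at 115 and 94.0. Peaks in T28F4.1 (133), W06H8.6 (114), Y65A5A.2 (108), M01H9.5 (95.3) and Y111B2A.12 (89.5) complete the 25 together with ldh-1 and rhy-1, described with their gene lists. Of the 25, 13 held a core within 50 bp and 9 lay in a first intron.

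The replicates placed the strong intron peaks alike and the weak ones much less so. Of the 58 thresholded members, 55 (94.8%, 85.9 to 98.2) had a summit within 100 bp in both replicate lists. Among those 55 the Spearman rho between the replicates' signals was 0.758, over peaks that share their libraries and control. The thresholded set was chosen for this reproducibility, so these values only describe it. Of the 58, 52 were among the 631 strongest entries of replicate 1, 39 among those of replicate 2 and 36 among those of both.

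For several thresholded members the 2 replicate lists differed. M01H9.5 (rank 145 in replicate 2), zfp-1 at 94.0 (rank 151 in replicate 2) and mdt-26, a Mediator subunit, at 65.3 (rank 2600 in replicate 2) had no summit within 100 bp in replicate 1. The match was by summit alone, so a replicate 1 peak with its summit further off would not be counted. The let-526 peak of 59.7, in a SWI/SNF subunit gene, ranked 11391 in replicate 1 and 474 in replicate 2. The unc-108 peak of 55.7, in the gene of a Rab2 GTPase, ranked 312 in replicate 1 and 6763 in replicate 2. The nhr-21 peak of 83.0 ranked 139 in replicate 1 and 1406 in replicate 2.

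**Figure D1:**
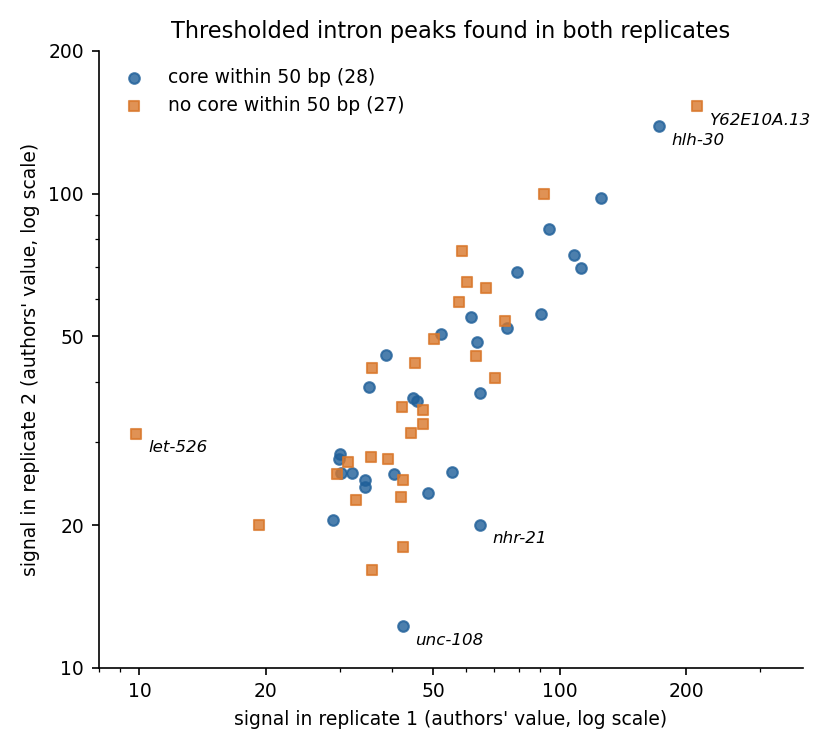
Signal in replicate 1 against replicate 2, both on log axes and each on its own scale, for the 55 thresholded intron peaks with a summit within 100 bp in both lists; circles have a core within 50 bp and squares have none. Y62E10A.13 and hlh-30 sit at the top in both replicates, while let-526, unc-108 and nhr-21 stand off the diagonal trend.

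Over all 1069 members, 435 (40.7%, 37.8 to 43.7) had a summit in both lists, against 46.1% of all autosomal pooled peaks. A summit was found for 706 members in replicate 1 and for 736 in replicate 2, and for 62 in neither. Outside the thresholded set the share in both was 37.6% (380 of 1011), and the Spearman rho of the replicates' signals over those 380 was 0.152. Over all 435 members found in both, which span a wider range of signal, it was 0.402. The pooled signal of all members had a median of 24.98, quartiles of 22.7 and 30.2, and a lowest value of 21.2. At the edge of the thresholded set, the lowest member inside was in Y43F8B.2 at 54.9, and the highest outside was in lips-10 at 53.6.

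Intron peaks had a lower median signal than promoter peaks and about that of exon peaks. It was 24.98 in introns, 28.6 over the 1800 autosomal promoter peaks, 24.96 over the 1234 exon peaks and 26.1 over the 850 peaks between genes. The share in the thresholded set was 13.7% (12.2 to 15.3) of promoter peaks, 3.48% (2.60 to 4.66) of exon peaks and 9.29% (7.52 to 11.4) of peaks between genes. Per megabase of eligible sequence there were 43.1 intron peaks over 24.8 Mb, and 97.8 promoter peaks. Taking the 6541 strongest entries of each replicate instead, intron peaks came to 46.1 per Mb in either replicate, and promoter peaks to 96.04 and 94.6. The difference in density between introns and promoters was far larger than the difference between the replicates.

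Introns of the X chromosome, which the rule leaves out, held 59.7 peaks per Mb (65.5 and 63.1 in replicates 1 and 2), and 8.78% (6.06 to 12.6) of their 296 peaks were thresholded. Strong X intron peaks in ZK470.2 (649), H18N23.2 (352) and gnrr-3 (254) are therefore no members. Among the autosomes, chromosome II had 59.1 intron peaks per Mb (54.6 and 55.3 in replicates 1 and 2), and chromosome I had 34.1 (38.3 and 40.5). Chromosomes III, IV and V lay between them at 45.2, 41.0 and 39.8 per Mb.

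The requirement of no exon of any kind also left out 48 summits that lay in introns of protein-coding genes but in exons of noncoding genes. Of these, 9 were thresholded (18.8%), and 3 of them had signals above 200. In ppfr-1 the summits of 273 and 224 lay in exons of annotated antisense or noncoding RNA genes, as did one of 79.2, while the member at 177 did not. In F22B5.4, a gene described as dependent on HIF-1, the summit of 256 lay in an exon of a noncoding RNA gene, and its weaker neighbour of 53.6 is a member. The other thresholded ones were in ints-8 (91.3), drap-1 (88.3), klp-6 (78.0), let-526 (58.6) and vhp-1 (56.9). These 9 were named after their values were seen.

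First introns were denser in peaks than later ones. They held 339 of the 1069 members (31.7%, 29.0 to 34.6) and 23.02% of the eligible intron bases. That is 59.4 peaks per Mb in first introns and 38.3 per Mb in all later ones. The replicates' own lists gave 58.2 and 42.4 per Mb in replicate 1, and 60.6 and 41.8 per Mb in replicate 2. The gap between first and later introns was therefore wider than that between replicates for each class. Introns were numbered in the transcript with the longest coding sequence that covers the summit. With gaps between merged exons instead, the share in first introns was 27.03%, and the matching share of bases is not given here.

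Beyond the first intron the density did not fall evenly. It was 42.8 per Mb in intron 2, 37.4 in intron 3, 45.5 in intron 4 and 39.9 in intron 5, and 32.6 in intron 6 and later ones. For intron 6 and later the replicates gave 40.4 and 35.9 per Mb. Of the 58 thresholded peaks 23 lay in first introns (39.7%, 28.1 to 52.5), or 4.03 per Mb against 1.83 per Mb in later introns. Intron 4 was close to first introns, at 3.70 per Mb (10 peaks). At like length, first and later introns had 6.81 and 6.47 thresholded peaks per Mb at 5000 bp or more (9 and 12 peaks). They had 5.57 and 4.29 from 2000 to under 5000 bp (7 and 12 peaks). From 1000 to under 2000 bp they had 4.81 and 1.24, from 5 peaks each. Shorter length classes held 2 or 3 thresholded peaks each. Signal itself was hardly tied to intron number, with a Spearman rho of -0.07 over the 1069 members, and the median was 25.6 in first and 24.9 in later introns.

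The promoter window bears on these figures, since it removes the start of many first introns. It set aside 169 intron summits, with a median signal of 26.9 and 10 in the thresholded set. Within 100 bp inside the window's edge there were 52 summits with a median signal of 25.4, and within 100 bp outside it 39 with a median of 24.7. With a window widened to 2000 bp before and 500 bp after the start, first introns held 27.03% of the 862 members left. The share of eligible bases under that window is not given here.

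The peaks were densest in the longest introns, and short introns were not empty. The host introns of members had a median length of 1201 bp, with quartiles of 430 and 4090 bp, and those of thresholded members a median of 3274.5 bp. Over the 71790 introns with eligible sequence the median was 90 bp, and weighted by base it was 990 bp. Per megabase, introns of 5000 bp or more held 70.9 peaks, with 76.9 in replicate 1 and 67.7 in replicate 2. Introns from 1000 to under 2000 bp held the fewest, 28.6 per Mb (27.4 and 33.1), and introns under 250 bp held 51.6 (52.2 and 51.6). The relation of density to length was thus not monotonic, with a low point at intermediate lengths in both replicates.

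Thresholded peaks were mostly in longer introns. Introns of 2000 bp or more held 40 of the 58 (69.0%). The thresholded density was 6.61 per Mb in introns of 5000 bp or more, 4.69 from 2000 to under 5000 bp and 0.600 under 250 bp. In the shortest class only rhy-1 and mrpl-53, a mitochondrial ribosomal protein gene, had a thresholded member. Signal and intron length had a Spearman rho of 0.184 over the 1069 members, which share libraries and control, and 0.136 over the 58.

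Peak width limits what a short intron can show. The median interval was 444 bp wide, and for 520 members (48.6%) it reached past the ends of the host intron, which was so for 10 of the thresholded 58. In short introns the summit alone places the peak in the intron, and reads from the flanking exons share its interval.

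Intron number and length were partly separable. Among introns of 1000 to under 2000 bp, first introns held 53.9 peaks per Mb (51.0 and 55.8 in replicates 1 and 2) and later ones 22.04 (21.3 and 27.2). Among introns of 2000 to under 5000 bp they held 70.0 (66.9 and 70.8) and 44.7 (49.3 and 39.0). Among introns of 5000 bp or more the values came closer, at 77.2 (78.0 and 68.9) and 66.3 (76.1 and 66.9). Under 250 bp the first introns were at 52.3 (52.3 and 40.7) and the later ones at 51.5 (52.2 and 52.9), and replicate 2 had the lower value in first introns. From 250 to under 500 bp first introns held 51.6 (51.6 and 54.9) and later ones 36.03 (39.3 and 47.2). From 500 to under 1000 bp they held 38.4 (37.5 and 53.2) and 30.02 (38.9 and 35.6), and there replicate 1 had the lower value in first introns. First introns were thus the denser in both replicates in 4 of the 6 length classes. In 1 of these, 5000 bp or more, the gap within each replicate was smaller than that between the replicates.

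**Figure D2:**
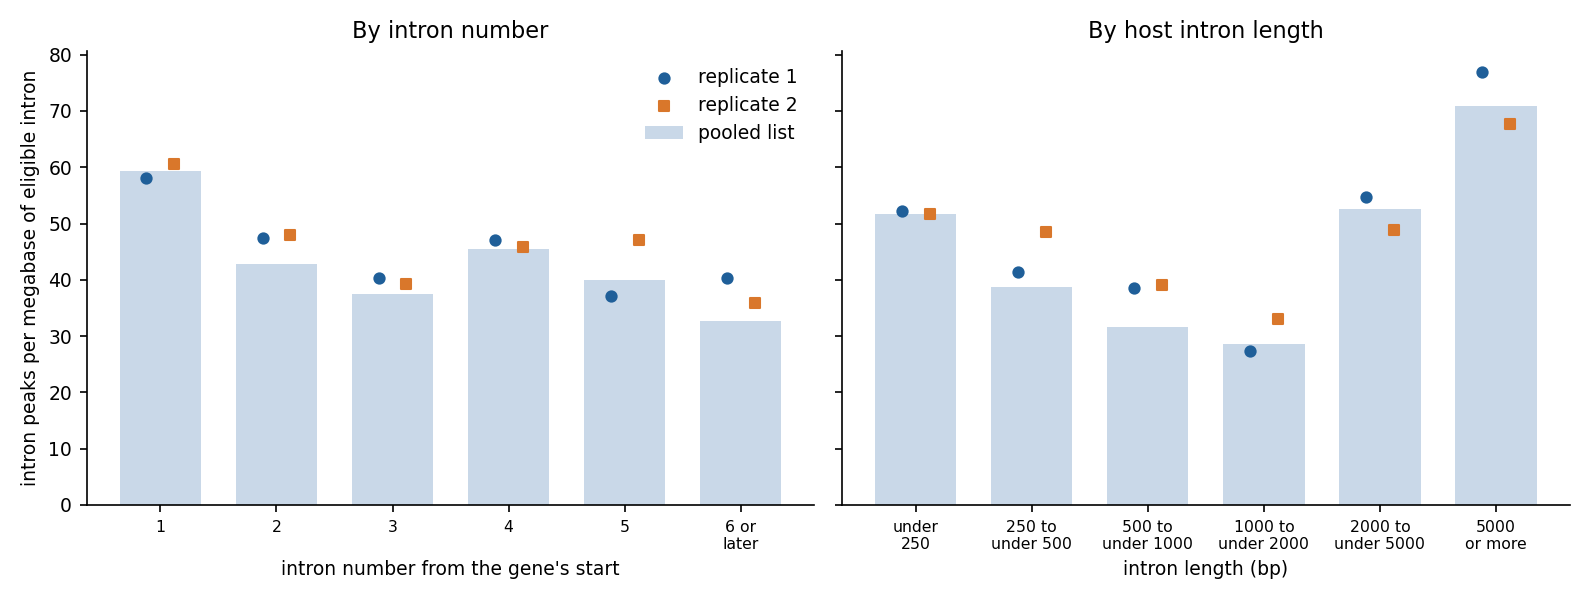
Intron peaks per megabase of eligible intron by intron number in the covering transcript (left) and by host intron length in bp (right); bars are the pooled list and points the 6541 strongest entries of replicate 1 (circles) and replicate 2 (squares). First introns, at 59.4 per Mb, and introns of 5000 bp or more, at 70.9 per Mb, stand highest, and introns of 1000 to under 2000 bp lowest at 28.6 per Mb.

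Many worm genes have further transcript starts inside the gene, and intron peaks were denser near them. Of the members, 234 (21.9%) lay up to 1000 bp before or 200 bp after an internal start of a protein-coding transcript, in 11.1% of the eligible bases. This is 85.3 peaks per Mb inside those windows and 37.9 outside. In replicate 1 the values were 90.01 and 40.6, and in replicate 2 they were 87.1 and 41.0. Of the thresholded members 23 (39.7%) lay in such windows, or 8.38 per Mb against 1.59 outside. The rule counts only the outermost start of each gene, so these peaks remain members. Removing them left 835 members with 4.19% thresholded and 26.8% in first introns, for which the matching share of bases is not given.

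Examples from the thresholded set show how close the internal starts can be. The vps-25 summit (59.999), in a gene of the ESCRT-II complex, was 14 bp upstream of one, and that of nurf-1 was 49 bp upstream. The vhp-1 summit (58.2), in a MAP kinase phosphatase gene, was 71 bp and the hrpk-1 summit (60.6), in an hnRNP K gene, was 107 bp upstream. Of these genes, vps-25 and hrpk-1 were named after their distances were seen. By contrast, the pkg-2 summit of 129 lay 5209 bp downstream of the nearest transcript start of its gene, and that of cogc-3 (82.4), a Golgi complex subunit, 10189 bp downstream.

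The start of another gene was often nearer than the host gene's own. The nearest protein-coding gene start was the host's for 764 members (71.5%) and for 38 of the 58 thresholded ones. The median distance to the host's start was 2716 bp for all members and 4393 bp for the thresholded ones. The zfp-1 summit of 94.0, for example, was 524 bp downstream of the start of F54F2.6 and 8642 bp from that of zfp-1. Which gene a summit serves was not tested, and 17 members lay in 2 or more protein-coding genes at once.

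The HIF-1 core was found at more intron summits than in the sequence around them. Within 50 bp of the summit, 227 of the 1069 members (21.2%, 18.9 to 23.8) held ACGTG or GCGTG on either strand, against 24% of all autosomal pooled peaks. In windows of the same length centred 500 bp to the left and to the right it was 13.4% and 13.5%. Over all 207237 windows of 101 bases tiled across eligible introns it was 10.8%. Promoter peaks held it in 27.5% (25.5 to 29.6). The share in intron peaks thus lay above that of their flanks and below that of promoter peaks.

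In the thresholded set the contrast was larger. There 30 of 58 (51.7%, 39.2 to 64.1) held a core, against 10.3% and 17.2% in the flanks. The 246 thresholded promoter peaks were at 48.8% (42.6 to 55.0) and all 469 thresholded autosomal peaks at 47.1% (42.6 to 51.6). Both lay within the interval of the intron peaks, so the higher share was not particular to introns. Of the 1011 other members 197 (19.5%, 17.2 to 22.04) held one. Counting the strongest 631 entries of each replicate, 57.7% of the 71 intron peaks of replicate 1 and 42.9% of the 56 of replicate 2 held a core, with 50.4% and 45.2% for promoter peaks.

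The core followed the signal only at the top. In 5 groups of equal size by signal, 38.8% (32.5 to 45.5) of the strongest 214 members held it, and 18.2%, 15.4%, 16.4% and 17.4% of the groups below. Recurrence between replicates fell through all 5 groups, at 78.0%, 49.5%, 39.7%, 22.4% and 13.6%. The pooled signal and the replicate lists come from the same reads, so this fall is no separate test. First introns held 40.7% of the strongest group and between 26.6% and 32.7% of each of the others. The strongest group reached down to a signal of 31.9, well below the thresholded set.

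**Figure D3:**
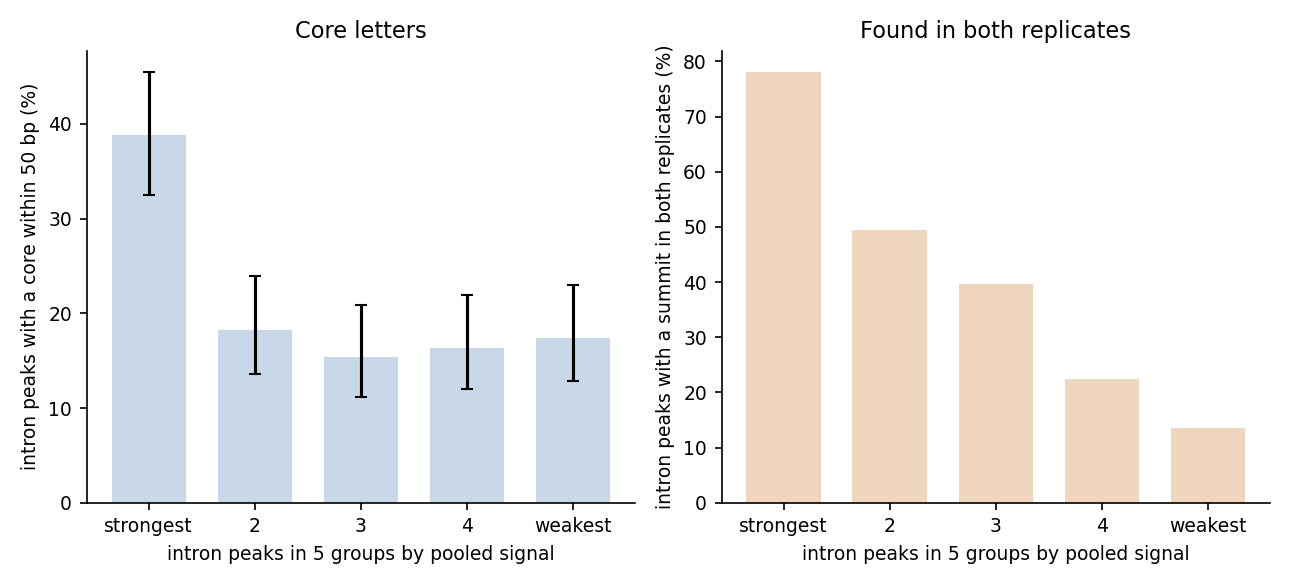
Share of intron peaks with a core within 50 bp (left, with 95% Wilson intervals) and with a summit in both replicates (right) in 5 groups by pooled signal, 214 or 213 peaks in each. The core share drops from 38.8% to 18.2% after the strongest group and then stays level, while the share in both replicates falls at every step to 13.6%.

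Cores around thresholded summits spread over more than 200 bp. In bins of 25 bp, 18.97% of the 58 had a core centred in the bin just left of the summit and 13.8% in the bin just right of it. The share was at least 10.3% in every bin from 125 bp left to 125 bp right, and reached 22.4% (13 of 58) from 100 to 125 bp right. The other members stayed between 3.07% and 7.12% in all bins. The summit of the pooled list is thus not a sharp guide to the core in these peaks.

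**Figure D4:**
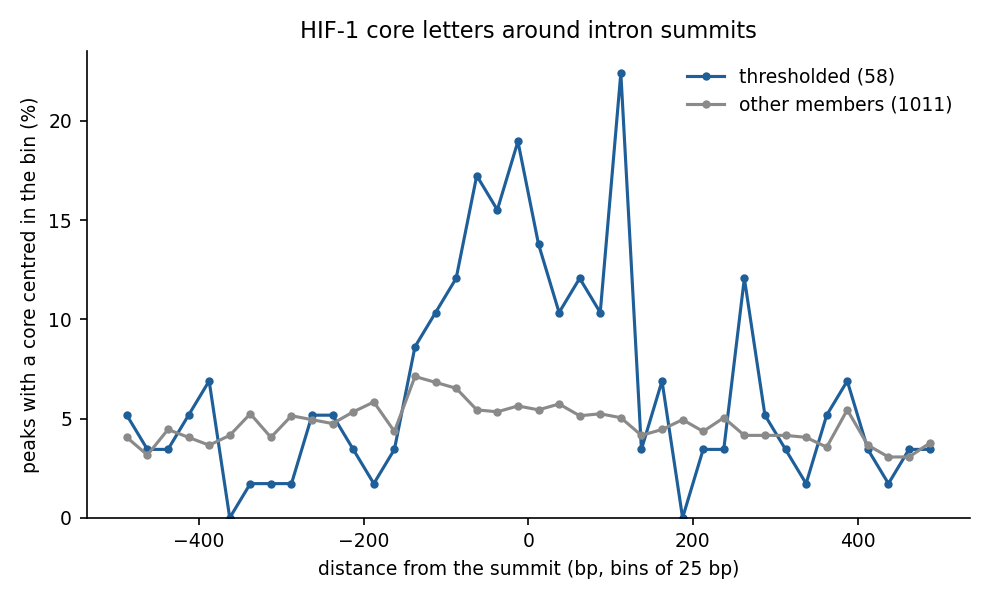
Percent of intron peaks with an ACGTG or GCGTG core centred in each bin of 25 bp, by distance from the summit, for the 58 thresholded members and the 1011 others. Thresholded peaks rise above 10% from 125 bp left to 125 bp right of the summit, as they do in 1 bin beyond 250 bp right, and the others remain at 7.12% or less throughout.

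Base composition moved with the core. The median GC content of the 101 bases was 36.6% for all members, 48.5% for thresholded members and 31.7% for the tiled intron windows. The flanks of thresholded peaks had a median GC of 33.7% to the left and 37.1% to the right. Within windows of 30% to under 40% GC, 18.1% (14.8 to 21.9) of members and 11.9% of tiled windows held a core. Within 40% to under 50% it was 30.2% (25.2 to 35.6) and 21.5%. At 50% GC or more it was 34.2% (26.2 to 43.2) and 31.96%, which did not separate members from other intron sequence of the same composition. Of the thresholded members 26 fell in that last class, and 13 of them held a core (95% interval 32.1% to 67.9%).

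Of the longer forms of the core, TACGTG was in 20.7% of the thresholded members, 3.93% of all members and 1.53% of the tiled windows. CACGTG, the E-box of many helix-loop-helix factors, was in 8.62%, 2.90% and 1.39%. ACGTG, which includes both, was in 32.8% of the thresholded members and GCGTG in 18.97%. Per replicate, TACGTG was in 22.5% and 16.1% of the intron peaks among the strongest 631 entries.

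Other words also recurred among the thresholded intron peaks: GAGAGA, and TGCGTC, which shares the letters GCGT with the core. Over all 1069 members GAGAGA on either strand was in 12.9% (11.03 to 15.1), near the 13.1% (11.6 to 14.7) of all promoter peaks, with 6.36% and 7.02% in the members' flanks. TGCGTC was in 5.80% of all members and 10.1% of all promoter peaks. In the thresholded set GAGAGA was in 27 of the 58 thresholded intron peaks (46.6%, 34.3 to 59.2), in 5.17% and 6.90% of their flanks and in 4.16% of the tiled windows. In thresholded promoter peaks it was in 20.3% (15.8 to 25.8). Among the strongest 631 entries it was in 40.8% of intron and 21.6% of promoter peaks of replicate 1, and in 33.9% and 17.2% in replicate 2. In X introns it was in 7.69% and 17.4%, over 26 and 23 peaks. TGCGTC was in 22.4% of the thresholded intron peaks, in 0 of the 58 windows of either flank, in 1.93% of tiled windows and in 18.7% of thresholded promoter peaks. Both words were chosen with earlier results of these data known, so the shares are a description.

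Core and words were found together as well as apart. Among thresholded members 14 held a core alone, 16 held GAGAGA or TGCGTC alone, 16 held both kinds and 12 held none of these. The median signals were 78.7, 87.2, 99.8 and 77.5 in the same order. The nurf-1, daf-5 (127) and epg-9 summits held both words and no core, as their sequences printed above show. The fkh-7 summit of 146 held both words and a core. Among the 1011 other members 70.4% held none of these.

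Members were spread thinly over genes. The 1069 lay in 794 genes, 5.3% of the 14994 autosomal protein-coding genes with eligible sequence, and the 58 thresholded ones in 46 genes, 0.307%. Of the 794 genes 635 had 1 member and 159 had 2 or more. Of 71790 introns, 901 held a member. Of all members 58 had a stronger pooled summit within 250 bp, and 162 had an interval that overlapped that of another pooled peak, and whether such neighbours are separate sites was not tested.

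The genes with the most members were long. The first, fkh-7, had 9 in 19.3 kb of eligible intron, of which 2 were thresholded and 6 were found in both replicates. Next came hlh-30 with 8 members (304 down to 23.8, 2 thresholded), daf-5 with 8 (127 down to 24.4, 2 thresholded) and zfp-1 with 7 (176 down to 24.4). In vhp-1 there were 7 members from 58.2 down to 21.4, and in tir-1, the SARM1-like adaptor of innate immunity, 7 from 37.2 down to 21.4. The tir-1 peaks were all outside the thresholded set. Per kilobase of eligible intron these 6 genes ran from 0.269 (tir-1) to 0.935 (zfp-1).

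Weak members made up most of those clusters. In fkh-7 the strongest outside the thresholded set was at 47.6 and the other 6 were at 35.0 or less. In zfp-1, 5 of 7 were thresholded, at 176, 115, 94.0, 75.6 and 56.8, and no other gene had more than 2 thresholded members. Of these 5, the summits at 94.0 and 56.8 were 221 bp apart. The genes Y62E10A.13, pqn-41, egl-9, mnk-1, let-526, ncl-1 and nhr-46 had 6 members each.

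**Figure D5:**
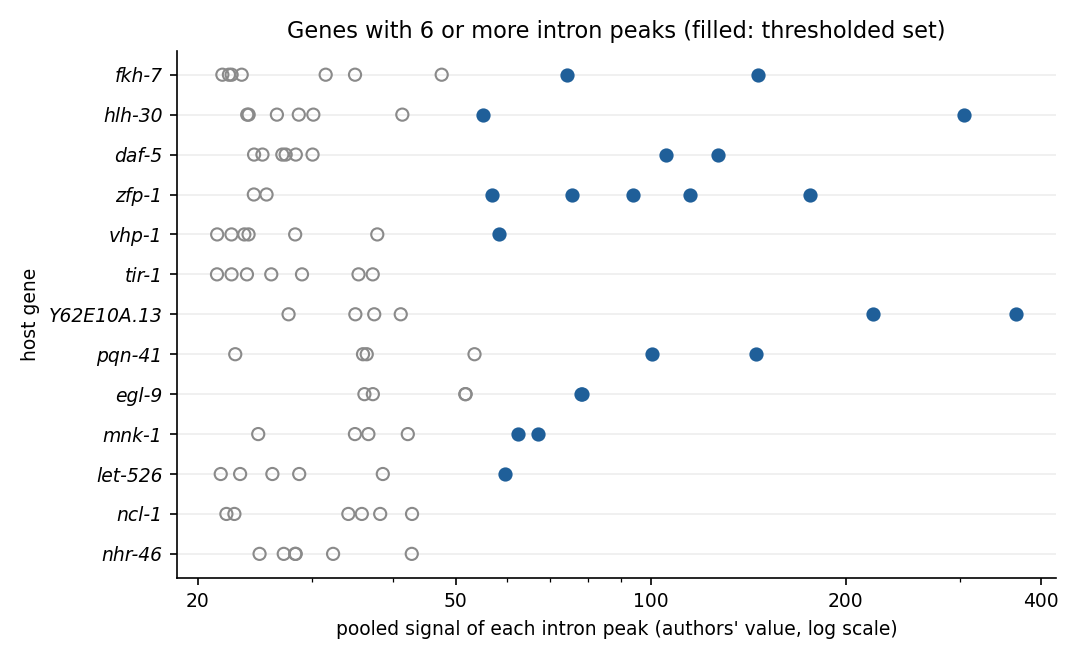
Pooled signal of every intron peak (log axis) in the 13 genes with 6 or more, 1 row per gene; filled points are in the thresholded set and open points are not. Y62E10A.13 and hlh-30 hold the strongest points at 366 and 304, zfp-1 has 5 filled points, and tir-1, ncl-1 and nhr-46 have none.

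Genes described as dependent on HIF-1 held intron peaks in 7 of 16 cases with eligible sequence (43.8%), and genes of the HIF-1 pathway in 4 of 9 (44.4%), against 5.3% of all genes. Both lists contain rhy-1 and egl-9. These lists and those below were chosen with earlier results of these data known, so their shares are a description. The strongest was in rhy-1 at 115, with 63.5 in replicate 1 and 48.5 in replicate 2, in a first intron of 239 bp. It held 2 cores and lay 224 bp downstream of the gene's start, just outside the promoter window, and 1162 bp from the promoter peak of 838. A second rhy-1 member at 31.3 was 200 bp further along and had a summit in replicate 1 (27.3) and none in replicate 2.

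In egl-9 all 6 members recurred in both replicates. The 2 thresholded ones had signals of 78.2 (55.6 and 25.9 in replicates 1 and 2) in intron 4 and 78.0 (44.7 and 37.0) in intron 7. The others were at 51.8, 51.7, 37.3 and 36.2. Of the 6, 4 held a core, and egl-9 had 1.28 members per kb of eligible intron, above each of the 6 genes with the most members. Some genes with less eligible intron were higher, among them rhy-1 at 5.17 and zip-2 at 2.49 per kb. The 78.2 summit lay 219 bp upstream of an internal transcript start.

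The remaining members in these lists were outside the thresholded set. They were in F22B5.4 (53.6), in oac-54, an acyltransferase-like gene (53.1), in phy-2, a collagen prolyl hydroxylase subunit (35.8), in sqrd-1, the sulfide oxidising enzyme (24.8, 24.7 and 23.5), and in dhs-8, a short-chain dehydrogenase (21.95). The chaperone gene hsp-90 had 26.4. The hif-1 gene itself, whose product carries the tag, had 3 members at 32.8, 28.8 and 27.6, of which the first had a summit in both replicates. F22B5.4 and phy-2 had cores at the summit, with 2 and 1 matches, and oac-54, sqrd-1, dhs-8 and hsp-90 had none.

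Among metabolic genes, ldh-1 and enol-1 had thresholded intron peaks. The ldh-1 peak, in lactate dehydrogenase, had a signal of 123, with 74.97 and 52.1 in replicates 1 and 2, and held 1 core in the first intron. The enol-1 peak, in enolase, had 58.5 (29.99 and 28.2) and 1 core, also in the first intron. In all, 6 of 23 glycolysis and gluconeogenesis genes (26.1%) held a member, and 4 of 18 genes of serine and sulfur metabolism (22.2%), where Y62E10A.13 had the only thresholded ones.

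Among regulators, 9 of 20 insulin and stress genes (45.0%) held a member, led by hlh-30, skn-1 and zip-2, a bZIP factor of the infection response (80.8, with 35.8 and 42.9 in replicates 1 and 2). Of 242 nuclear hormone receptor genes 11 (4.55%) did, with nhr-19 and nhr-21 thresholded, and of 29 helix-loop-helix genes 2 (6.90%), hlh-30 and hif-1. The share was 3 of 63 (4.76%) for homeobox genes and 3 of 28 (10.7%) for guanylate cyclases. Neither had a thresholded member, where 0.307% of all genes had one. The daf-16 gene, the FOXO factor, had 2 members at 28.7 and 26.1.

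The muscle and synapse lists held members of low signal. Body wall muscle genes had a member in 9 of 29 cases (31.0%), the highest in zyx-1 at 34.5, and synapse and channel genes in 9 of 71 (12.7%), the highest in rab-3 at 38.3. Neither list had a thresholded member, but only 0.307% of all genes had one, so its absence from lists of this size says little. Of these 23 members 1 held a core, against 21.2% of all members. Of 34 ribosomal protein genes none held a member, in 0.00426 Mb of eligible intron. Genes with more intron sequence can hold more peaks, so the lists were also set out per Mb of eligible intron, where all genes had 43.1 members. The HIF-1 dependent list had 643 and the HIF-1 pathway 993, from 0.0233 and 0.0121 Mb. Serine and sulfur metabolism had 460, helix-loop-helix genes 185, insulin and stress genes 172, and glycolysis and gluconeogenesis 142. Muscle genes had 67.9, nuclear hormone receptors 65.8, guanylate cyclases 47.3, synapse and channel genes 32.3 and homeobox genes 25.3. Single genes held many of the members in the lists of highest density. They were egl-9 with 6 of the 15 HIF-1 dependent and 6 of the 12 pathway members, and Y62E10A.13 with 6 of the 11 in serine and sulfur metabolism. In the helix-loop-helix list hlh-30 held 8 of 11. Some genes, such as hlh-30 and sqrd-1, belong to several lists.

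Starts of annotated noncoding genes lay near some members. Within 500 bp of the start of a gene annotated as ncRNA there were 76 members (7.11%), in 4.08% of eligible bases, and 8 of the 58 thresholded ones. For piRNA gene starts the figures were 38 members (3.55%) and 4.77% of bases, and for miRNA gene starts 5 members (0.468%) and 0.151% of bases.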

How the data were processed

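Peak lists from ChIP-seq of 2 biological replicates of 1 group were used as deposited on ce11. The authors made a relaxed list per replicate (13935 and 13823 entries), a relaxed list from the pooled reads (6541), and a thresholded set passing IDR (631), each against 1 control, per the deposited descriptions. The deposited signal value of each peak is the authors' own, and the sources used here do not give its formula, the aligner, the caller or the IDR cutoff. No read counts are in the lists, so depth is unknown, and intervals cover the number of peaks only. The control library and the ce10 lists were not used here.

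Summits (peak start plus offset, 1-based) were placed on Ensembl release 115 gene models of WBcel235, which is ce11, with RefSeq genome sequence, using Python 3.11.15, numpy 2.4.6, scipy 1.17.1 and matplotlib 3.10.9. Eligible sequence is every base that meets the rule for members. Introns were numbered in the covering transcript with the longest coding sequence, and the host was, of the protein-coding genes that contain the summit, the one with the nearest start. Cores and words were looked for in both orientations up to 50 bp from the summit. Each replicate was also taken alone by its 6541 strongest entries. The design has 1 group, so values are described with no tests, and the steps were checked on simulated positions.

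Members and gene lists were chosen with earlier results of these data known. Named are the host genes of the 25 strongest members, the 6 genes with the most members, every member of the HIF-1 dependent and HIF-1 pathway lists, and up to 3 thresholded members of each other list. Other genes are named as examples after their values were seen. Of the names in the 12 lists, 5 matched no gene. Alternatives changed the promoter window, exons, starts, replicates, distances and search windows.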

Additional observations from a re-analysis of the deposited data

How the results depend on the processing

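No paired analysis was possible because the series has 1 group. Of 69 alternative values, 43 stayed within the range allowed for their result, 26 moved and 0 reversed. The alternative of 1 summit per interval changed nothing, since no member shares an interval. Taking 1 replicate at a time gave 1142 to 1143 members with a median signal of 14.1 to 14.8 on the replicates' own scales, core shares of 20.2% to 21.5%, first-intron shares of 29.1% to 30.3%, median intron lengths of 1016 to 1149 bp and a rho of 0.137 to 0.179. The thresholded set alone left 58 members with a median signal of 82.7, 94.8% in both replicates, 51.7% with a core, 39.7% in first introns, a median intron of 3274.5 bp and a rho of 0.136. Windows around every transcript start gave 4.19% thresholded, 37.6% in both replicates, 26.8% in first introns and a median intron of 1091 bp. A promoter window of 500 bp before and 100 bp after the start gave a median intron of 1033 bp, and one of 2000 and 500 bp gave 1651.5 bp with 27.03% in first introns. Introns taken as gaps between merged exons gave 27.03% and 1053 bp. For these alternatives of window and intron the share of eligible bases in first introns is not given here. Summits within 50 bp were in both replicates for 26.01% and within 200 bp for 52.3%. The core share was 11.2% within 25 bp, 36.5% within 100 bp, 11.97% for ACGTG alone and 10.1% for GCGTG alone. Read depth is unknown, and most members lie near the bottom of a relaxed list, where 62 had no summit in either replicate.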
